A study of Sus scrofa with 6 samples.

Results

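The mitochondrial chromosome was examined as a unit in liver RNA of newborn piglets, taking every feature that the deposited tables place on the sequence MT, which gave 38 of 26733 features. These were 13 mRNAs, 2 rRNAs, 22 tRNAs and Novel01392, a transcribed stretch that carries only the authors' own identifier. The samples were newborn livers of Landrace x Yorkshire piglets whose mothers ate tryptophan on either of 2 daily schedules. In the High-Low group sows received 0.39% tryptophan in the morning and 0.13% in the afternoon, and in the 2×Trp group they received 0.26% at both meals. Each group had 3 libraries, and by its title the series asks which liver genes respond adversely to tryptophan in the diet. The labels name no piglet or litter for a library. The spread behind each p-value is therefore that of these 6 samples, and part of it may be technical. Levels were read as FPKM, fragments per kilobase of transcript scaled for library size, a unit that corrects for length and allows levels of different genes to be compared. The number of reads behind each value is unknown.

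The mitochondrial genome is a small circle whose strands are called heavy and light. In mammals it is transcribed from the control region into long precursors, which are cut at the tRNAs that lie between most of the coding genes. Its mRNAs encode subunits of respiratory complexes I, III and IV and of ATP synthase, also called complex V, while all other subunits are made from nuclear genes. Differences in the steady level of neighbouring mRNAs cut from a shared precursor are known to arise after transcription. No tRNA lies between ATP8 and ATP6, between ATP6 and COX3 or between ND4L and ND4. These genes are counted here as single mRNAs, as they are listed. Hepatocytes are rich in mitochondria, and birth is a time of rising oxidative metabolism in the liver.

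The features lie close together on the MT sequence of the susScr3 build that the submitters' processing notes name. Novel01392 covers positions 1 to 1122 on the plus strand and ends 53 bases before the first tRNA, at 1176 to 1245. The RefSeq gene table lists rRNAs at the next pair of long features, at 1246 to 2205 (ENSSSCG00000018061, 960 bases) and at 2274 to 3844 (ENSSSCG00000018063, 1571 bases). They are called the shorter and the longer rRNA here. Of the 7 complex I genes, ND1 lies at 3922 to 4878, ND2 at 5087 to 6130, ND3 at 10653 to 10998 and ND4L at 11069 to 11365, all on the plus strand. ND4 follows at 11359 to 12736 and ND5 at 12935 to 14755. ND6, at 14739 to 15266, is the only mRNA of the minus strand in the files, and it is known as the light strand message, while the other 12 are those of the heavy strand. The complex III gene CYTB lies at 15342 to 16481. Complex IV has COX1 at 6511 to 8055, COX2 at 8203 to 8890 and COX3 at 9800 to 10583. Complex V has ATP8 at 8959 to 9162 and ATP6 at 9120 to 9800. ATP8 overlaps ATP6 by 43 bases and ND4L overlaps ND4 by 7 on the same strand, ND6 overlaps ND5 by 17 on the opposite strand, and ATP6 shares 1 base with COX3. Neither the handling of reads in shared stretches nor the use of strand is stated in the sources used here. Values of these overlapping genes are therefore uncertain.

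Mitochondrial mRNAs were among the most abundant in the liver. Between 2 and 6 of the 13 stood among the 20 highest features of a High-Low library, and 1 or 2 in a 2×Trp library. MT features made up 10.02%, 5.83% and 6.79% of all FPKM in High-Low 1, High-Low 2 and High-Low 3, against 3.48%, 5.20% and 4.16% in 2×Trp 1, 2×Trp 2 and 2×Trp 3. All High-Low shares lay above all 2×Trp shares, with the smallest gap between High-Low 2 and 2×Trp 2. The mean difference was 3.26 percentage points, and it was 2.03 without High-Low replicate 1. Weighted by length, which brings FPKM close to a share of reads, they made up 14.18%, 9.24% and 10.45% in High-Low against 5.20%, 7.76% and 5.62% in 2×Trp. No test is given for these shares because they sum over the members.

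Cell type markers and library totals gave the following background in these bulk samples, where fewer cells of a type and less RNA per cell cannot be told apart. FPKM totals ran from 956426 to 1230288 in High-Low and from 1080050 to 1215059 in 2×Trp. The summed FPKM of the 7 of 10 hepatocyte markers with an identifier, led by APOA1 and ALB and with AHSG listed at 0 throughout, ran from 45612 to 70563 in High-Low and from 49713 to 64899 in 2×Trp. The 7 of 9 endothelial markers, led by PECAM1 and CLEC14A, summed to 65.9 to 91.0 FPKM in High-Low and to 92.8 to 130.3 in 2×Trp, without overlap. Sums of the 6 of 8 erythroid markers, led by HBB and HBM, ran from 1817 to 7199 in High-Low and from 6170 to 15893 in 2×Trp, with the lowest in High-Low 1. Macrophage markers, 6 of 9 and led by CD14 and C1QA, summed to 1080 to 1670 in High-Low and to 1468 to 2003 in 2×Trp. Genes of skeletal and heart muscle, tissues rich in mitochondria, summed to at most 1.17 FPKM in either group over 4 of 8 genes, with ACTC1 listed at 0 in all libraries, and 2 of 3 markers of kidney and brown fat to at most 0.0119 FPKM. The part of the endothelial and erythroid markers in the mitochondrial differences was not tested.

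**Figure D1:**
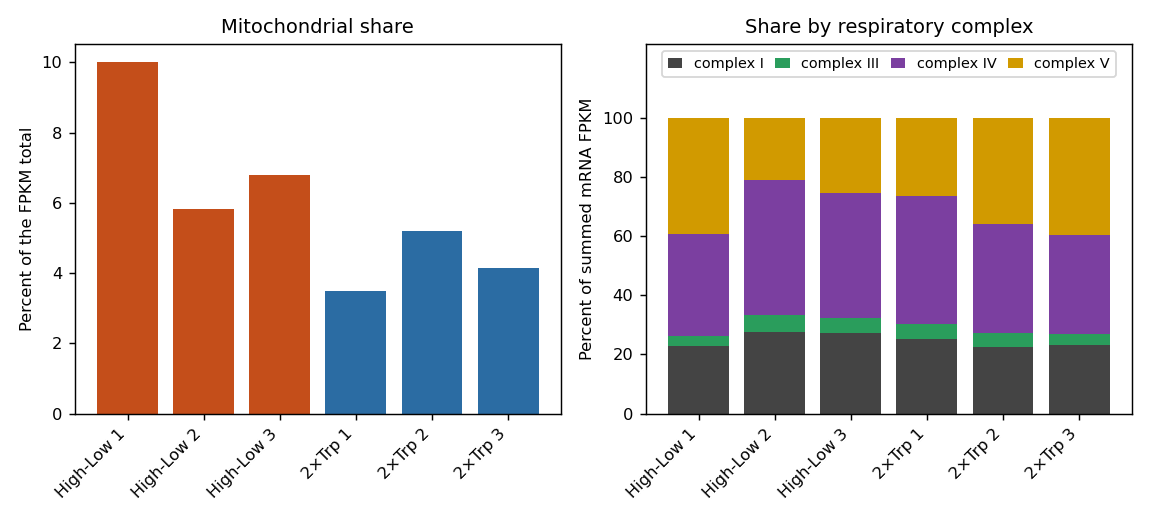
The left panel plots the percentage of each library's FPKM total that lay on the mitochondrial sequence, and the right panel splits the summed FPKM of the 13 mRNAs by respiratory complex, with 1 bar per library. High-Low shares ran from 5.83% to 10.02% and 2×Trp shares from 3.48% to 5.20%, while complex V took between 21.1% and 39.7% of the mRNA pool with no separation of the groups.

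Levels differed widely between the mRNAs of a library although most share a strand and a precursor. The most abundant mRNA exceeded the least abundant, ND5, by 30.0-fold to 45.2-fold in High-Low libraries and by 37.9-fold to 58.5-fold in 2×Trp libraries. ND5, one of the large membrane subunits of complex I, stood last of 13 in all 6 libraries, and CYTB stood 7th in all 6. By mean FPKM over the 6 libraries the order was ATP8 (14359), COX3 (13917), ND3 (9995), ATP6 (7123), COX1 (6370), COX2 (5636), CYTB (2983), ND1 (1995), ND4 (1606), ND4L (901), ND2 (788), ND6 (776) and ND5 (423). Several neighbours in that order did not differ beyond their spread. ATP8 exceeded COX3 in 3 of 6 libraries and ND2 exceeded ND6 in 2, with both orders found within a group. The order of ND1 and ND4 split by diet instead. ND1 stood at 1.40, 1.91 and 1.49 times ND4 in High-Low and at 0.926, 0.777 and 0.731 times in 2×Trp, a pair picked after its values were seen and given with no test. COX3 lay above ND3, COX2 above CYTB, CYTB above ND1 and ND6 above ND5 in 6 of 6 libraries. The profile of the 13 levels was alike in all libraries, with Spearman correlations across the 13 mRNAs of 0.929 to 0.978 within High-Low, 0.956 to 0.978 within 2×Trp and 0.945 to 0.984 between the groups. Genes that share a precursor are not independent, so these correlations are descriptions. ATP8 is also the shortest mRNA, at 204 bases, and its FPKM rests the most on the length correction.

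**Figure D2:**
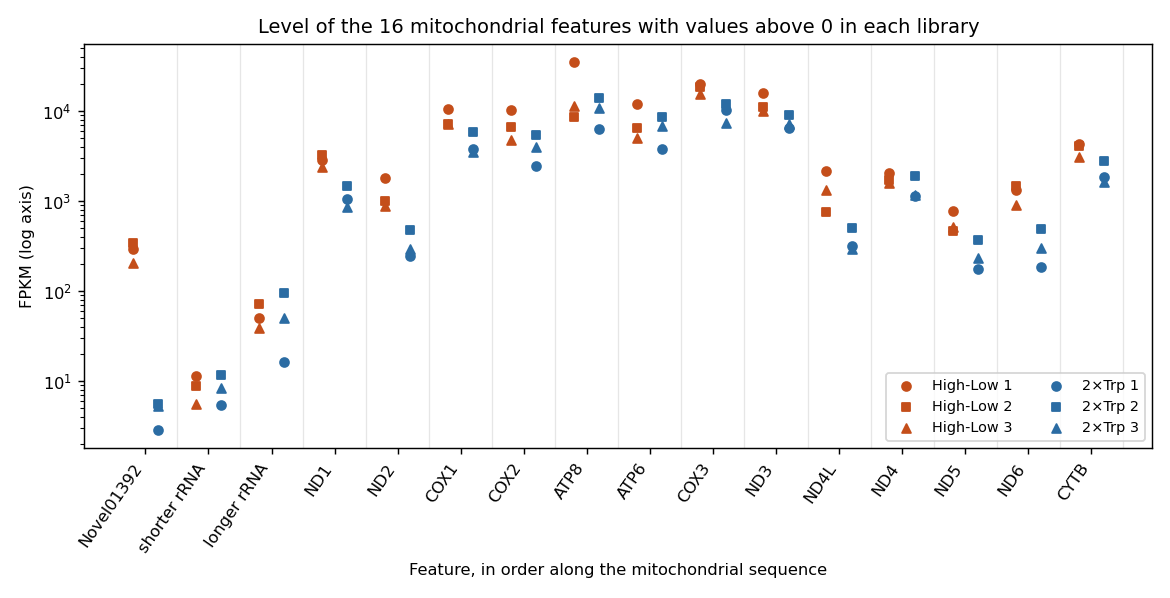
FPKM on a log axis of the 16 mitochondrial features with a value above 0, in order along the sequence, with 1 point per library. The rRNAs lie between 5.49 and 94.7 FPKM, far under the mRNAs, and Novel01392 lies between 203 and 345 FPKM in High-Low and between 2.88 and 5.50 FPKM in 2×Trp.

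Each mRNA and rRNA and Novel01392 was compared between the diets on log2(FPKM + 1) with limma, a linear model fitted over the 10901 genes that had 1 FPKM or more in at least 3 libraries. Of the 38 features 16 passed that filter, and the 22 that did not are the tRNAs. The log2 difference is High-Low minus 2×Trp, and genes with low values differ by more than it shows. Of the 13 mRNAs 0 passed an adjusted p of 0.05 in limma with Benjamini-Hochberg adjustment over all genes, where 0.00917% of all genes passed as higher and 0% as lower. That share is 1 gene of the 10901, Novel01392 itself. At an unadjusted p under 0.05 there were 9 higher and 0 lower mRNAs, where 1.25% and 1.92% of all genes stood in those directions. Without High-Low replicate 2 the share of all genes at an unadjusted p under 0.05 and higher was 5.72%, with 9 mitochondrial mRNAs. All 13 differences were positive, as were 49.5% of those of all genes tested. Their median was 0.89, beside a median of -0.0038 over all genes tested. In 9 mRNAs all High-Low values lay above all 2×Trp values, which held for 3.06% of all genes tested, and 0 mRNAs had the reverse, which held for 4.12%. The exceptions were COX2, ATP8, ATP6 and ND4. COX2 also separated when libraries were scaled to the FPKM total, with 5660 to 9748 in High-Low against 2538 to 5069 in 2×Trp. Within the High-Low group the highest value was in High-Low 1 for 11 of 13 mRNAs, and within 2×Trp it was in 2×Trp 2 for 13 of 13. The 13 values of a library therefore do not count as independent observations of the diets.

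Complex I genes had log2 differences from 0.38 for ND4 to 1.98 for ND6. This complex takes electrons from NADH, and the mitochondrial subunits form the core of its membrane arm. ND1 had 2902, 3282 and 2375 FPKM in High-Low 1, High-Low 2 and High-Low 3, against 1065, 1485 and 863 FPKM in 2×Trp 1, 2×Trp 2 and 2×Trp 3. The lowest High-Low library stood 890 FPKM above the highest 2×Trp library. Its log2 difference was 1.35 (SE 0.25, 95% interval 0.77 to 1.93), with an unadjusted p of 8.2e-04 and an adjusted p of 0.998 in limma. ND2 had 1815, 993 and 893 FPKM in High-Low against 247, 481 and 297 FPKM in 2×Trp. High-Low 1 was the highest of the 6 for ND2, and the groups did not overlap. The log2 difference of ND2 was 1.83 (SE 0.35, 95% interval 1.01 to 2.66; adjusted p = 0.998 in limma).

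ND3, a short subunit, had 15993, 11021 and 10114 FPKM in High-Low against 6536, 9046 and 7259 FPKM in 2×Trp. It did not overlap between the groups, with a log2 difference of 0.68 (SE 0.24). ND4L, encoded just ahead of ND4, had 2189, 758 and 1344 FPKM in High-Low against 318, 503 and 291 FPKM in 2×Trp. High-Low 2 lay nearest to the 2×Trp libraries, and the groups did not overlap. ND4L stood at a log2 difference of 1.86 (SE 0.40). ND4 itself had 2079, 1716 and 1596 FPKM in High-Low against 1150, 1911 and 1181 FPKM in 2×Trp. Here 2×Trp 2 exceeded High-Low 2 and High-Low 3, and the log2 difference was 0.38 (SE 0.25, 95% interval -0.20 to 0.96). ND5 had 773, 472 and 512 FPKM in High-Low against 176, 371 and 234 FPKM in 2×Trp, without overlap. Its log2 difference of 1.20 (SE 0.32) lay between those of ND4 and ND6. The adjusted p was 0.998 in limma for each of ND3, ND4L, ND4 and ND5.

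ND6, the light strand message, was with ND4L and ND2 one of the 3 mRNAs of highest log2 difference. It stood first with all libraries, but ND4L (2.25) and ND2 (1.95) stood above it (1.84) without High-Low replicate 2. Without 2×Trp replicate 1 ND4L stood above it (1.77 against 1.64). ND6 had 1315, 1461 and 897 FPKM in High-Low against 187, 494 and 300 FPKM in 2×Trp. The groups did not overlap, and 2×Trp 1 was the lowest of all. The log2 difference was 1.98 (SE 0.37, 95% interval 1.12 to 2.85), with an unadjusted p of 9.1e-04 and an adjusted p of 0.998 in limma. Relative to the mean FPKM of the 12 heavy strand mRNAs, ND6 stood at 0.134, 0.251 and 0.169 in High-Low and at 0.0591, 0.0947 and 0.0809 in 2×Trp. This ratio does not depend on how libraries are scaled, and its groups did not overlap. Whether the ND6 values include reads of the heavy strand is unknown, since the use of strand is not stated. Relative to ND5, which it overlaps on the other strand, ND6 stood at 1.70, 3.10 and 1.75 in High-Low and at 1.06, 1.33 and 1.28 in 2×Trp.

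CYTB, the mitochondrial subunit of complex III and the site of quinol oxidation, had 4334, 4099 and 3129 FPKM in High-Low against 1866, 2826 and 1644 FPKM in 2×Trp. The lowest High-Low value stood just above the highest 2×Trp value, and the log2 difference was 0.89 (SE 0.25; adjusted p = 0.998 in limma). Complex IV passes electrons to oxygen, and COX1 carries its catalytic centre. COX1 had 10561, 7209 and 7261 FPKM in High-Low against 3773, 5885 and 3533 FPKM in 2×Trp, without overlap. COX2, which receives electrons from cytochrome c, had 10300, 6750 and 4795 FPKM in High-Low against 2471, 5455 and 4048 FPKM in 2×Trp. High-Low 3 lay below 2×Trp 2 for COX2, so these groups overlapped. COX3 had 20024, 18459 and 15358 FPKM in High-Low against 10302, 11973 and 7388 FPKM in 2×Trp, without overlap. The log2 differences were alike, at 0.94 (SE 0.26) for COX1, 0.87 (SE 0.37) for COX2 and 0.88 (SE 0.23) for COX3, with adjusted p of 0.998 each in limma.

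The complex V genes ATP8 and ATP6 varied within both groups and overlapped between the diets. ATP8, a small subunit at the membrane stalk of ATP synthase, had 34902, 8522 and 11386 FPKM in High-Low against 6334, 14063 and 10947 FPKM in 2×Trp. High-Low 1 stood far above all other libraries, while High-Low 2 lay below 2×Trp 2 and 2×Trp 3. The log2 difference of ATP8 was 0.60 (SE 0.54, 95% interval -0.68 to 1.87), and it was -0.0096 without High-Low replicate 1. ATP6, which forms part of the proton channel, had 11945, 6524 and 5026 FPKM in High-Low against 3775, 8624 and 6844 FPKM in 2×Trp. Its groups overlapped as those of ATP8 did, with a log2 difference of 0.27 (SE 0.41, 95% interval -0.68 to 1.23). The direction for ATP6 turned without High-Low replicate 1 (-0.08) and without 2×Trp replicate 1 (-0.07). Adjusted p was 0.998 in limma for both genes, and both intervals reach beyond a log2 difference of 1.

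**Figure D3:**
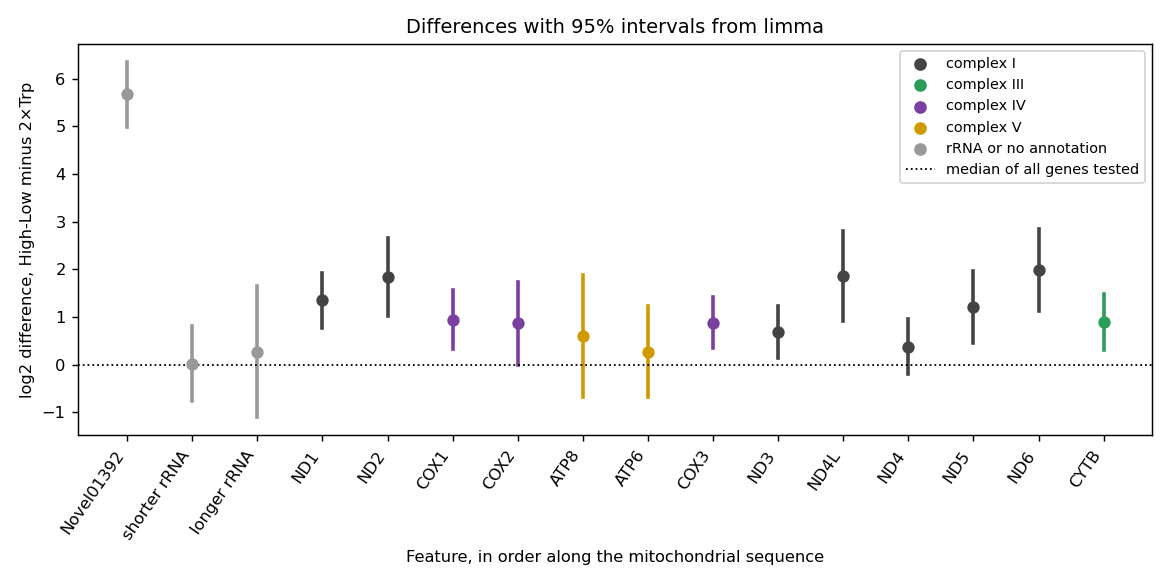
Log2 differences, High-Low minus 2×Trp, with 95% intervals from limma, for the 16 mitochondrial features that passed the filter, coloured by respiratory complex. Novel01392 stands at 5.68, the mRNAs between 0.27 and 1.98, and the rRNAs at 0.02 and 0.27 with intervals that include 0.

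The rRNAs had low levels and no separation by diet. They form the core of the mitochondrial ribosome, and here they lay far under the mRNAs in every library. The shorter rRNA had 11.5, 8.75 and 5.58 FPKM in High-Low against 5.49, 11.7 and 8.34 FPKM in 2×Trp. The longer rRNA had 50.3, 72.7 and 38.7 FPKM in High-Low against 16.2, 94.7 and 50.8 FPKM in 2×Trp. For both, 2×Trp 2 was the highest and 2×Trp 1 the lowest of the 6 libraries. The log2 differences were 0.02 (SE 0.33, 95% interval -0.77 to 0.80) and 0.27 (SE 0.59, 95% interval -1.11 to 1.66), with adjusted p of 0.998 in limma. The longer rRNA stood at 4.38, 8.31 and 6.94 times the shorter in High-Low and at 2.95, 8.07 and 6.09 times in 2×Trp. ND1, the first coding gene after the longer rRNA, exceeded it by 57.7-fold, 45.1-fold and 61.3-fold in High-Low and by 65.7-fold, 15.7-fold and 17.0-fold in 2×Trp. Whether the preparation selected polyadenylated RNA is not stated in the labels, so the ratio of rRNA to mRNA is not read as that of the cell.

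All 22 tRNAs were listed at 0 in all 6 libraries. They are 59 to 75 bases long, with 14 on the plus strand and 8 on the minus strand. Of 314 features of at most 75 bases on other chromosomes, 8 had a value above 0 in any library. A listed 0 is therefore common for features of this length, and tRNA levels cannot be read from these tables.

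Novel01392 was the 1 member that passed the threshold, and it was higher in High-Low. Whether its bounds were drawn from reads of these same libraries is not stated in the sources used here. If they were, its p-value is not independent of that choice. The stretch precedes the mitochondrial genes, where mammals have the control region that holds the promoters and the origin of heavy strand replication. It had 297, 345 and 203 FPKM in High-Low against 2.88, 5.50 and 5.22 FPKM in 2×Trp. The lowest High-Low library stood 37.0 times above the highest 2×Trp library. The log2 difference was 5.68 (SE 0.29, 95% interval 4.997 to 6.359), with an adjusted p of 0.0015 in limma. Its adjusted p ran from 7.6e-05 to 0.0210 over 14 alternatives. Set against ND1 of the same library, Novel01392 stood at 10.23%, 10.52% and 8.57% in High-Low and at 0.271%, 0.371% and 0.605% in 2×Trp. The spread within High-Low was thus small when ND1 was the base. Set against the mean of the 13 mRNAs it stood at 3.24%, 6.29% and 4.09% in High-Low and at 0.0980%, 0.113% and 0.152% in 2×Trp.

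The ratio of each mRNA to the mRNA upstream of it was compared next, since a ratio within a library does not depend on how libraries are scaled. Of the 12 ratios along the sequence 6 did not overlap between the diets, 3 higher and 3 lower in High-Low. Among 9799 pairs of neighbouring nuclear genes 7.83% did not overlap, 4.14% higher and 3.68% lower in High-Low. An exact permutation test over the libraries cannot go below 0.1 with 3 against 3, and all 6 of these ratios reached that value (exact permutation p = 0.1 two-sided, 0.2 adjusted over the 12). They share genes and are not independent of each other.

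COX1 stood at 5.82, 7.26 and 8.13 times ND2 in High-Low and at 15.2, 12.2 and 11.9 times in 2×Trp. ND4L stood at 0.137, 0.0688 and 0.133 times ND3 in High-Low and at 0.0487, 0.0556 and 0.0401 times in 2×Trp. The step back from ND4L to ND4 went the other way, since ND4 reached 0.950, 2.26 and 1.19 times ND4L in High-Low and 3.61, 3.80 and 4.06 times in 2×Trp. That pair had the largest shift of the 12, a log2 difference of -1.48. It shares 7 bases and has no tRNA between its genes, so its ratio is not read as that of separate mRNAs. ND5 reached 0.371, 0.275 and 0.321 times ND4 in High-Low and 0.153, 0.194 and 0.198 times in 2×Trp. The ratio of ND6 to ND5, given above, was also higher in High-Low. CYTB stood at 3.30, 2.81 and 3.49 times ND6 in High-Low and at 9.97, 5.72 and 5.48 times in 2×Trp. The separated ratios thus involved ND2, ND4L, ND4, ND5 and ND6 on at least 1 side of each pair.

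The other 6 ratios overlapped. ND2 over ND1 ran from 0.303 to 0.625 in High-Low and from 0.232 to 0.344 in 2×Trp. COX2 over COX1 ran from 0.660 to 0.975 in High-Low and from 0.655 to 1.15 in 2×Trp. ATP6 over ATP8 was 0.596 to 0.625 in the 2×Trp libraries, a narrow range, and 0.342 to 0.765 in High-Low. ATP8 over COX2 was likewise tight in 2×Trp, where it was 2.56 to 2.70, against 1.26 to 3.39 in High-Low. COX3 over ATP6 and ND3 over COX3 had log2 differences of 0.61 and -0.19, with exact permutation p of 0.2 and 0.5. Without single libraries these differences ran from 0.32 to 0.99 and from -0.34 to -0.027.

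**Figure D4:**
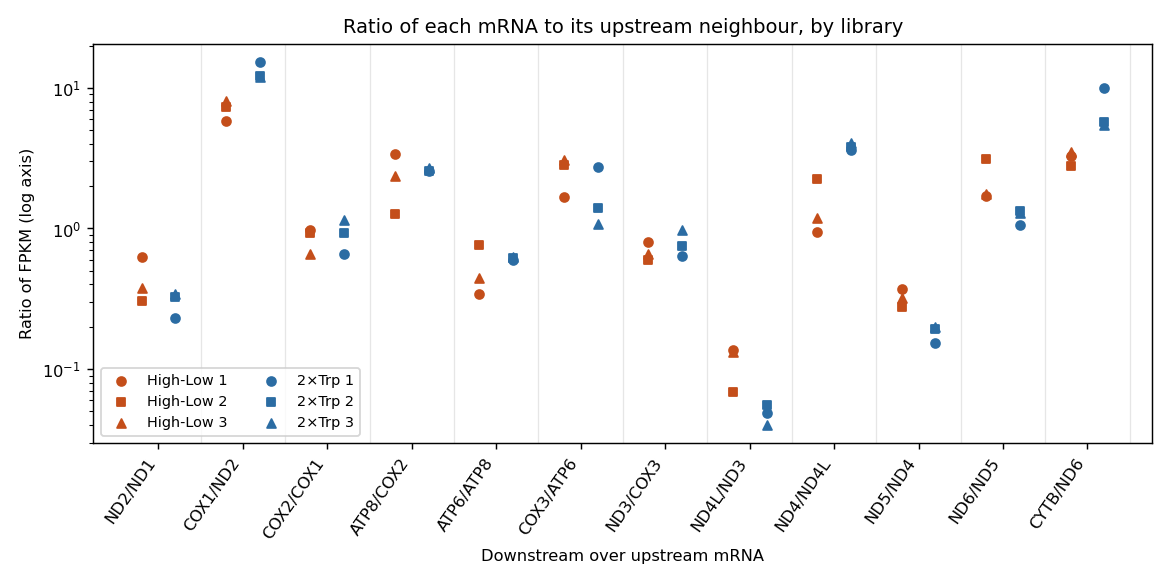
FPKM ratio of each mRNA to its upstream neighbour on a log axis, in order along the sequence, with 1 point per library. The groups separate for COX1/ND2, ND4L/ND3, ND4/ND4L, ND5/ND4, ND6/ND5 and CYTB/ND6 and overlap for the other 6 ratios.

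Within the pool of mitochondrial mRNAs, 3 genes took a larger place in High-Low, 3 a smaller one and 7 overlapped. ND4L and ND4 overlap with no tRNA between them, as do ATP8 and ATP6. The levels within each of these pairs are not read as those of separate mRNAs. Among 10689 nuclear genes above 0 in all libraries, each set against the mean log2 level of these genes in the library, 2.88% were higher and 3.85% lower without overlap. That mean is taken over many more genes than the 13 used for the mitochondrial levels, so the shares are not a like measure. Each mitochondrial level was expressed on the log2 scale relative to the mean of the 13 log2 levels of the same library. Higher places for some genes must therefore go with lower ones for others, and no test is given. ND6 stood at -1.95, -1.20 and -1.77 in High-Low and at -2.92, -2.34 and -2.44 in 2×Trp. ND2 stood at -1.49, -1.75 and -1.77 in High-Low and at -2.51, -2.38 and -2.46 in 2×Trp. The third was ND4L, which separated narrowly, with -2.14 in High-Low 2 against -2.15 in 2×Trp 1. On the other side ND4 stood at -1.29, -0.96 and -0.94 in High-Low and at -0.30, -0.39 and -0.47 in 2×Trp. ATP6 stood at 1.23, 0.96 and 0.72 in High-Low and at 1.42, 1.79 and 2.07 in 2×Trp, and ND3 at 1.65 to 1.73 against 1.85 to 2.21. COX1, COX2, COX3, CYTB, ND1, ND5 and ATP8 overlapped, with mean differences from -0.46 for ATP8 to 0.29 for ND1.

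**Figure D5:**
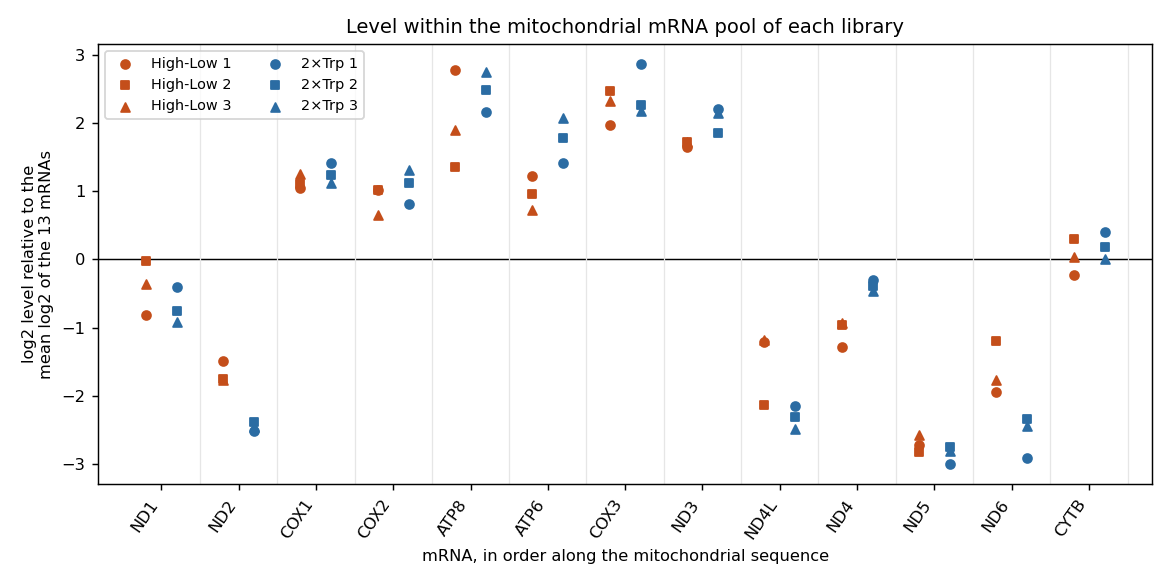
Log2 level of each mitochondrial mRNA relative to the mean log2 level of the 13 mRNAs of the same library, with 1 point per library. ND2, ND4L and ND6 lie higher in High-Low, ATP6, ND3 and ND4 lie lower, and the other 7 overlap.

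Ratios between the mean FPKM of whole complexes overlapped between the diets. The complex I mean is mostly ND3, which made up 59.1%, 55.9% and 57.0% of the summed complex I FPKM in High-Low and 67.5%, 63.3% and 69.6% in 2×Trp. With each mRNA given equal weight, the median log2 difference was 1.35 over the 7 complex I mRNAs, 0.88 over the 3 of complex IV and 0.44 over the 2 of complex V, beside 0.89 for CYTB. The mean FPKM of the complex I mRNAs stood at 0.284, 0.261 and 0.277 of the complex IV mean in High-Low and at 0.251, 0.263 and 0.299 in 2×Trp. Complex III stood at 0.318, 0.379 and 0.342 of complex IV in High-Low and at 0.338, 0.364 and 0.330 in 2×Trp. Both ratios overlapped, with log2 differences of 0.02 and 0.01, and so did that of complex I to complex III, at 0.01. Complex V varied more, and complex IV stood at 0.582, 1.44 and 1.11 of its mean in High-Low and at 1.09, 0.685 and 0.561 in 2×Trp. The complex means themselves were 3867, 2815 and 2533 FPKM for complex I in High-Low against 1383, 2042 and 1489 FPKM in 2×Trp. For complex IV they were 13628, 10806 and 9138 FPKM against 5515, 7771 and 4990 FPKM. These and CYTB did not overlap between the groups, and complex V, at 23424, 7523 and 8206 FPKM in High-Low against 5054, 11343 and 8895 FPKM in 2×Trp, did.

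Nuclear genes that act on mitochondrial RNA, on the copying of mitochondrial DNA or on mitochondrial number had small differences in either direction. In limma 0 of them passed an adjusted p of 0.05 in 4 lists, where 0.00917% of all genes tested passed as higher and 0% as lower. That share is Novel01392 alone, so no nuclear gene passed. At an unadjusted p under 0.05 the lists also had 0, where 1.25% of all genes stood higher and 1.92% lower. The list of transcription and replication factors had 10 tested genes, 6 positive and 4 negative, with a median log2 difference of 0.05. MGME1, a nuclease of mitochondrial DNA replication, had 3.80, 4.55 and 4.40 FPKM in High-Low against 3.51, 3.30 and 3.27 FPKM in 2×Trp. Its groups did not overlap, as for 3.06% of all genes in that direction. MTERF3, which represses mitochondrial transcription in mice, had 2.84 to 4.20 FPKM in High-Low against 2.44 to 3.43 in 2×Trp. TFAM and POLRMT, the main transcription factor and the polymerase, were not analysed here.

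RNA processing and stability had 23 tested genes, 10 positive and 13 negative, with a median of -0.05 that ran from -0.16 to 0.065 without single libraries. LRPPRC and SLIRP form the complex that stabilises mitochondrial mRNAs. LRPPRC had 7.61, 1.66 and 4.18 FPKM in High-Low against 1.42, 4.56 and 2.79 FPKM in 2×Trp, and SLIRP had 212, 185 and 171 FPKM against 120, 181 and 211 FPKM. Both genes were highest in High-Low 1 and lowest in 2×Trp 1, and the groups overlapped for both. HSD17B10 and TRMT10C belong to the RNase P that cuts precursors at the tRNAs. HSD17B10 had 303, 426 and 294 FPKM in High-Low against 461, 401 and 476 FPKM in 2×Trp, and TRMT10C had 4.10, 1.45 and 2.41 FPKM against 0.560, 2.33 and 2.02 FPKM. TRMT10C was also highest in High-Low 1 and lowest in 2×Trp 1, while HSD17B10 was highest in 2×Trp 3 and lowest in High-Low 3. Translation, mostly proteins of the mitochondrial ribosome, had 51 tested genes, 22 positive and 29 negative, with a median of -0.02 that ran from -0.13 to 0.069 without single libraries. The members of smallest p there were MRPS18A, with 31.5 to 33.1 FPKM in High-Low against 37.3 to 41.3 in 2×Trp and no overlap, as for 4.12% of all genes in that direction, and MRPL38, with 109 to 156 against 155 to 163 FPKM. Regulators of mitochondrial number had 9 tested genes, 4 positive and 5 negative, with a median of -0.00096, led by SIRT3, at 20.6 to 42.2 FPKM in High-Low against 34.6 to 42.4 in 2×Trp, and ESRRA, at 64.9 to 90.3 against 53.3 to 78.6 FPKM.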

How the data were processed

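Per the labels' protocols, Trizol was used on frozen liver and TruSeq RNA kits on the extracted RNA. Titles gave groups and replicate numbers. HTSeq 0.6.1, TopHat2 2.0.12 and Bowtie2 2.2.3, with the build susScr3, stand in the submitters' processing notes. The way values, annotation and strand were handled was not given in the sources used here. Each library has its own table of 26733 features, and the values, as deposited, are taken to be FPKM because totals differ between libraries and values are not whole. Multiplied by the listed length, at most 11.6% of low values came within 0.05 of a whole read at any depth tried, so no count model was run and depth is unknown. Symbols matched 11804 of 25322 Ensembl identifiers. Biotypes came from the RefSeq table of Sscrofa11.1, matched by symbol or by the same start and end on MT.

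Under R 4.3.3, limma 3.58.1 compared log2(FPKM + 1) with a moderated variance (mean trend, robust), for genes with 1 FPKM or more in 3 libraries. P-values were adjusted by Benjamini-Hochberg, with a threshold of 0.05. This fit was tested on simulated data. Single ratios were tested by exact permutation, two-sided. All members may be named. Of the nuclear lists the 2 genes of smallest p were named, with LRPPRC and SLIRP, and of marker lists the 2 most abundant. The members and lists were chosen with earlier results of these data known. Alternatives were other scalings, filters and pseudocounts, other variance settings, a replicate block and leaving out each library. Figures used matplotlib 3.10.9 in Python 3.11.15.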

Additional observations from a re-analysis of the deposited data

How the results depend on the processing

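All alternatives were planned. The count of mitochondrial mRNAs past the adjusted threshold was 0 in each direction under all 14 alternatives in limma, and 8 to 11 had an unadjusted p under 0.05. Novel01392 passed under all 14, with log2 differences of 5.44 to 5.95. Whether the replicate numbers pair the libraries is not stated in the labels. Deviations from the group means had correlations of -0.216, -0.011 and 0.032 between same-numbered libraries, and of -0.133 to 0.119 between the others. With 3 libraries per group these values cannot decide the question. The replicate block gave Novel01392 an adjusted p of 0.0184 at an unchanged 5.68, and the median of the 13 mRNAs was 0.89. Scaling moved the median of all genes by at most 0.0551 on the log2 scale. Over all genes, 1 was lower with either scaling or quantile normalization, and 2 were higher without 2×Trp replicate 3. Leaving out single libraries gave a median of 0.80 to 1.13 for the 13 mRNAs. Log2 differences then ran from -0.0096 to 1.01 for ATP8, from -0.082 to 0.54 for ATP6, from -0.23 to 0.27 for the shorter rRNA and from -0.40 to 0.83 for the longer. Ratio differences ran from -0.29 to 0.12 for COX2 over COX1 and from -0.59 to 0.12 for ATP8 over COX2. The mitochondrial share differed by 5.10 percentage points with FPKM weighted by length, and by 2.03 to 4.12 without single libraries. ND6 over the heavy strand mRNAs had a log2 difference of 1.22, and 0.78 against ND5 alone. The median of the transcription and replication list was 0.11 with scaling to nuclear genes and -0.0059 to 0.13 without single libraries, and that of the regulators was -0.075 to 0.099. The causes of these shifts were not tested. Complex V had no gene free of overlaps, so its ratios without overlapping genes were not run. Recovered reads were not run either.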
